A study of Mus musculus with 2 samples.

Results

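The clustered histone genes are the mouse genes for the replication-dependent histones H1, H2A, H2B, H3 and H4, which lie in the Hist1, Hist2, Hist3 and Hist4 clusters. They were chosen by symbol, through the RefSeq transcript identifiers of the deposited mRNA table, with the transcript of the highest mean level standing for each gene. Of 71 such genes in RefSeq, 67 were in the table, among 20317 mRNA genes with a symbol. They comprised 6 H1, 18 H2A, 18 H2B, 12 H3 and 13 H4 genes. H1 genes outside the clusters, such as H1f0, were not counted as members.

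The study sequenced total RNA of primary hepatocytes, the parenchymal cells of the liver, from a mouse model of liver fibrosis and from controls, to find RNAs that differ between them. The oil control library came from wild-type (WT) C57BL/6J mice given intraperitoneal oil, and the CCl4 model library from mice of the same strain and genotype given the liver toxin carbon tetrachloride (CCl4). CCl4 was given as a 20% solution in mineral oil, at 2.5 ml CCl4 per kg and 2 injections per week, for 8 weeks by the labels and 4 weeks by the methods. The methods give male mice of 5 weeks of age and an isolation by pronase and collagenase perfusion followed by a density gradient. There was 1 library per group, and the number of mice in each was not given in the sources used here. The library totals, recovered from the deposited values, were 57992593 reads in oil and 64655547 reads in CCl4. With 1 library per group, no difference below has a replicate check, an SD or a p-value.

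Replication-dependent histones package newly made DNA, and their genes are transcribed mainly in S phase. Their mRNAs are mostly unspliced and end in a stem-loop bound by SLBP in place of a poly(A) tail, while in differentiated tissues a few members, H2bc4 and H2bc21 among them, are also known as polyadenylated transcripts. Histone variants such as H3.3 and H2A.Z are made from genes elsewhere in the genome, in and out of S phase, and adult hepatocytes are largely quiescent until injury calls for new cells.

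The clustered histone genes were higher in the CCl4 library almost as a block. Levels are given in RPKM, read numbers scaled to transcript length and to library depth. This scaling does not correct for a different RNA composition of the libraries, so values relative to the median gene are also given below. Differences are log2 fold changes of CCl4 over oil with 0.1 RPKM added to each value. A gene was counted as higher or lower from a 2-fold difference on, a value of 1 on the log2 scale. Of the 57 members listed in both libraries, 47 were higher and 0 were lower, with a median log2 fold change of 1.41 and a range from -0.66 to 2.39. Over all 10689 mRNA genes listed in both libraries, 14.3% were higher and 5.48% were lower, with a median of 0.30. Only 6.31% of all these genes had a log2 fold change at or above the members' median. Summed over all members, the level was 3027 RPKM in oil and 6231 RPKM in CCl4, a ratio of 2.06.

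The members also differed little among themselves. Their log2 fold changes had an SD across genes of 0.50, against 0.81 over all mRNA genes, and an interquartile range of 0.42 against 0.86. Within 0.3 of the median lay 40 of the 57 members, and 55 had a log2 fold change above 0. Many genes of the same histone type are near-identical copies. How reads that match several copies were counted is not given in the sources used here, so the members are not independent of each other. When the log2 ratios were set relative to the median gene, a shift of 0.30, 37 of 57 members remained past the 2-fold limit, 53 were above 0 and the median was 1.11. With that scaling the share of all genes that were higher became 7.99% and the share that were lower 9.71%.

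**Figure D1:**
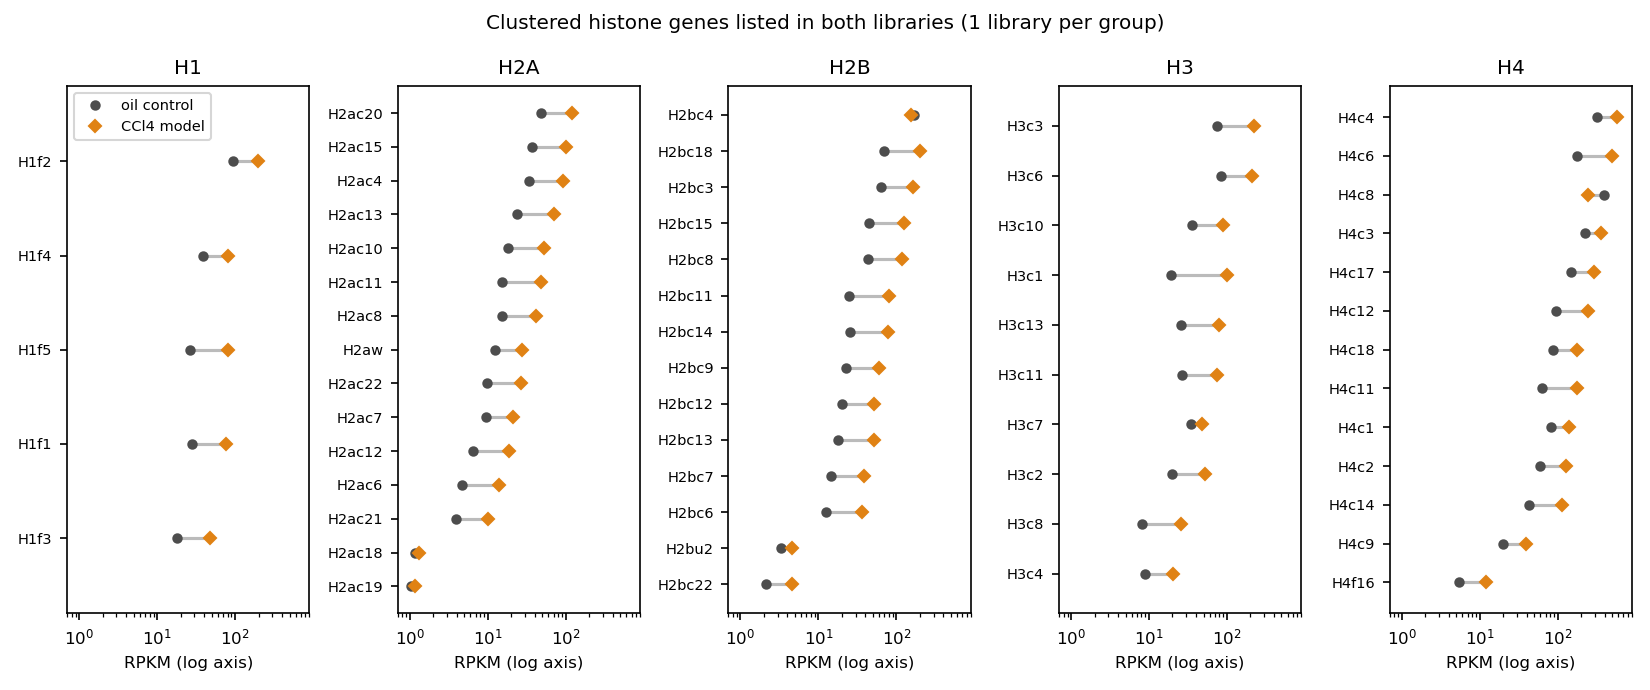
Level of each clustered histone gene listed in both libraries, in RPKM on a log axis, by histone type, with 1 point for the oil control library and 1 for the CCl4 model library. The CCl4 point lies to the right for all genes but H2bc4 and H4c8.

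The sequences upstream of the genes show what the types share and where they differ. RefSeq promoter windows, from 250 bases before to 50 bases after the start, were found for 62 of the 67 members, with 63 windows in all. The 5 members without a window were H2bc21, H2bc4, H3c1, H3c7 and H4c14. Windows are shown for H1f2, H2bc18, H3c3 and H4c6, abundant genes of their types that were higher in the CCl4 library, for H2ac6, which lies beside H2bc4, and for H4c8, the member with the lowest fold change. Coordinates are on GRCm38.p6, and capitals mark matches on either strand to 4 motifs, which are the TATA motif TATAAA, the NF-Y motif CCAAT, the octamer motif ATTTGCAT and the motif of the H1 AC box AAACACA.
H1f2, chr13:23738557-23738856, + strand: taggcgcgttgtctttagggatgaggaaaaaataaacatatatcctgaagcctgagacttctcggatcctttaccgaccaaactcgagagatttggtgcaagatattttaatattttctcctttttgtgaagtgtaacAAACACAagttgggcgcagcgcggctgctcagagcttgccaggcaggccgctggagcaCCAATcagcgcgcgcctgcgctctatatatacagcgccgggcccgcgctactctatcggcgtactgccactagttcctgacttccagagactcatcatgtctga
H2ac6, chr13:23683910-23684209, - strand: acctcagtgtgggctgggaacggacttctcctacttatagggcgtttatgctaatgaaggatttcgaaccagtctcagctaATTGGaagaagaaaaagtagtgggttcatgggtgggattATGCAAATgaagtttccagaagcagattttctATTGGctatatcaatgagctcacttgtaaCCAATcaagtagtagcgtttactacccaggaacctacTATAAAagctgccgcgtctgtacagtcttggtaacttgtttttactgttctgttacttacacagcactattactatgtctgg
H2bc18, chr3:96269450-96269749, + strand: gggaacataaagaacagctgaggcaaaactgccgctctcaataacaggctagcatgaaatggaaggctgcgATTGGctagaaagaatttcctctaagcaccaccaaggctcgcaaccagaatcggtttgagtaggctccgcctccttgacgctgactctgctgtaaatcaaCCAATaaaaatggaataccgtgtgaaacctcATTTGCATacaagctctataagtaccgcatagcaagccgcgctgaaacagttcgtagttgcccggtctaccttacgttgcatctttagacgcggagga
H3c3, chr13:23745472-23745771, - strand: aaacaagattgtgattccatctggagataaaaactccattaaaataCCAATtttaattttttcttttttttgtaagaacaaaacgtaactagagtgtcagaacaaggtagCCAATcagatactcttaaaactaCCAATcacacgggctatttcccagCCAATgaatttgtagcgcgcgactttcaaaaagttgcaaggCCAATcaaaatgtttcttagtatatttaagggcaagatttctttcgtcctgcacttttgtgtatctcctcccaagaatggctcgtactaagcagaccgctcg
H4c6, chr13:23551619-23551918, - strand: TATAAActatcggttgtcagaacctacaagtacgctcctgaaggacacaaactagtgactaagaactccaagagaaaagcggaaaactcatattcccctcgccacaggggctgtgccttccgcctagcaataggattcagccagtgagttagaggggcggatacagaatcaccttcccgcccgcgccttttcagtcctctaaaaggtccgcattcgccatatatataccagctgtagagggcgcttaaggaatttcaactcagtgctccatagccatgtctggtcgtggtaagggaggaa
H4c8, chr13:23530794-23531093, + strand: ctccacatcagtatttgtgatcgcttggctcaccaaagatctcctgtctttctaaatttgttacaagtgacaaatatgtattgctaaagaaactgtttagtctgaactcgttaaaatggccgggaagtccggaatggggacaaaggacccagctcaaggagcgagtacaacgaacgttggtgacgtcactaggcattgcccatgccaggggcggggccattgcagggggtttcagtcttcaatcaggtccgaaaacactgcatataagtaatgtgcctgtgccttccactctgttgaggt

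CCAAT, the letters bound by the factor NF-Y, was in all 6 H1, all 18 H2A, all 17 H2B and all 10 H3 windows, but in 3 of 12 H4 windows. It was in 85.7% of the members' windows and in 37.4% of all 32851 windows of the same length in the table. The octamer, known from H2B promoters as a site of Oct-1, was in 7 of 18 H2A and 7 of 17 H2B windows and in 0 of the H1, H3 and H4 windows, or 22.2% of the members' against 1.74% of all windows. The AC box was in 5 of 6 H1 windows, and in 14.3% of the members' against 7.18% of all windows. TATAAA was in 55.6% of the members' and 13.6% of all windows, and in the 30 windows with a match on the gene's own strand its median position was -32 bases from the start. The letters of 1 motif can overlap those of another by a few bases, and a match is a run of letters, not a measured binding site.

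The 44 members with a CCAAT and listed in both libraries had a median log2 fold change of 1.42, and the 9 without it had 1.14. All of these 9 were H4 genes. Within H4 the order was the other way, since the 3 genes with a CCAAT, H4c3, H4c1 and H4c4, had log2 fold changes of 0.67, 0.74 and 0.87. The 11 with an octamer had a median of 1.43 and the 42 without it 1.38. H4c8 held none of the 4 motifs in its window, and neither did H4c2 and H4f16, whose log2 fold changes were 1.14 and 1.14. Left out of these comparisons for want of a window were H2bc4, H3c1, H3c7 and H4c14. Their log2 fold changes were -0.16, 2.39, 0.44 and 1.43, so the highest member and 2 of the lowest are missing.

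The linker histones H1 bind the DNA between nucleosomes and compact chromatin. All 5 somatic H1 genes were higher in the CCl4 library, with a median log2 fold change of 1.41 and a range from 1.06 to 1.59. H1f2 was the most abundant, at 92.8 RPKM in oil and 197.3 RPKM in CCl4, a log2 fold change of 1.09. H1f4 was at 38.4 RPKM and 80.0 RPKM, with a log2 fold change of 1.06. The 2 most abundant H1 genes thus had the lowest fold changes of the type. H1f1 went from 27.6 RPKM in oil to 77.6 RPKM in CCl4, a log2 fold change of 1.49, and H1f5 from 26.5 RPKM to 80.0 RPKM, a log2 fold change of 1.59. H1f6, the linker histone of the testis, was listed at 0 in both libraries. The sum over the type was 203.4 RPKM in oil and 483 RPKM in CCl4.

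H2A and H2B form the dimers on the outer faces of the nucleosome. Of 15 H2A genes listed in both libraries, 13 were higher, with a median log2 fold change of 1.43 and a sum over the type of 239.7 RPKM in oil and 648 RPKM in CCl4. H2ac20 was the most abundant, at 48.2 RPKM in oil and 122.2 RPKM in CCl4, a log2 fold change of 1.34. H2ac15 was at 36.7 RPKM and 100.5 RPKM, H2ac4 at 33.8 RPKM and 91.2 RPKM, and H2ac13 at 23.5 RPKM and 71.7 RPKM, with log2 fold changes of 1.45, 1.43 and 1.604. H2ac11 had the highest fold change of the type, 1.67 on the log2 scale, from 15.1 RPKM to 48.2 RPKM. The values of these genes were apart by 2.53-fold to 3.19-fold between the libraries.

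The 2 H2A genes that were not 2-fold higher were H2ac18 and H2ac19, a neighbouring pair on chromosome 3. H2ac18 was at 1.16 RPKM in oil and 1.31 RPKM in CCl4, and H2ac19 at 1.05 RPKM and 1.17 RPKM. These values lie just above the level of 1 RPKM under which the deposited tables list a gene at 0, and their log2 fold changes of 0.16 and 0.15 became -0.12 and -0.12 when scaled to the median gene. From about 38 and 47 reads, the 95% counting interval of the H2ac18 log2 ratio ran from -0.50 to 0.81, which spans 0. The same table placed the transcript of each at a second locus, listed at 0.

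Of 14 H2B genes listed in both libraries, 12 were higher, with a median log2 fold change of 1.45. H2bc18 was at 69.9 RPKM in oil and 198.4 RPKM in CCl4, a log2 fold change of 1.504 on 1998 and 6325 reads, with a 95% counting interval of the ratio from 1.43 to 1.58. H2bc3 was at 62.9 RPKM and 165.9 RPKM, a log2 fold change of 1.398, and H2bc15 at 44.2 RPKM and 124.4 RPKM, a log2 fold change of 1.49. H2bc11 had the highest fold change of the type, 1.71 on the log2 scale, from 24.4 RPKM to 80.1 RPKM. These intervals cover counting error only and not the difference between animals.

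H2bc4 stood apart from the other H2B genes. It was the most abundant of them in the oil library, at 170.6 RPKM, and was at 152.5 RPKM in the CCl4 library, a log2 fold change of -0.16 that became 0.041 when scaled without the 10 most abundant genes. Its share of the summed H2B level was 32.0% in oil and 13.05% in CCl4. Without it, the log2 ratio of the summed H2B level was 1.49 in place of 1.13. The gene spans chr13:23684199-23692480, far longer than the other abundant H2B genes, and its span lies 239 bases from that of H2ac6. H2ac6, whose window is printed above, was at 4.72 RPKM in oil and 14.0 RPKM in CCl4, a log2 fold change of 1.55, so these neighbours differed by 1.71 on the log2 scale. H2ac6 was taken up here after its values were seen.

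H3 and H4 form the tetramer at the core of the nucleosome. Of 10 H3 genes listed in both libraries, 9 were higher, with a median log2 fold change of 1.42, and the sum over the type was 335 RPKM in oil and 916 RPKM in CCl4, a ratio of 2.73. H3c3 was at 74.0 RPKM in oil and 220.0 RPKM in CCl4, a log2 fold change of 1.57 on 2059 and 6827 reads. H3c6 was at 82.9 RPKM and 207.8 RPKM, a log2 fold change of 1.33, and H3c10 at 35.3 RPKM and 89.2 RPKM, a log2 fold change of 1.33. H3c8 was the least abundant of those named, at 8.24 RPKM and 26.0 RPKM, with a log2 fold change of 1.65.

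H3c1 and H3c7 stood apart from the other H3 genes. H3c1, at chr13:23761885-23762386, was at 19.1 RPKM in oil and 100.7 RPKM in CCl4, a 5.27-fold difference and the highest log2 fold change of all members, 2.39. Its counting interval, from 2.27 to 2.53, lay above that of each other named member with an interval, while none was computed for H2bc4, H2bc21 and H2bc22. Of all mRNA genes, 0.954% had a log2 fold change at or above it. H3c7 was at 35.0 RPKM and 47.5 RPKM, a log2 fold change of 0.44 with an interval from 0.36 to 0.53, so its share of the summed H3 level was 10.4% in oil and 5.19% in CCl4.

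H4 was the most abundant type and the one with the smallest difference. Its 13 genes summed to 1716 RPKM in oil and 3015 RPKM in CCl4, a ratio of 1.76, and made up 56.7% of the summed level of all members in oil and 48.4% in CCl4. These sums include H4c8, at 392.7 RPKM in oil and 248.2 RPKM in CCl4. The ratio without H4c8 was not computed, so its part in the low ratio of the type was not tested. Higher by at least 2-fold were 8 of the 13, with a median log2 fold change of 1.04. H4c4 was at 315.6 RPKM and 576.5 RPKM, a log2 fold change of 0.87, and H4c3 at 226.0 RPKM and 359.7 RPKM, a log2 fold change of 0.67. H4c6 was at 179.2 RPKM in oil and 498.0 RPKM in CCl4, a log2 fold change of 1.47, close to the median of the other types.

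H4c8 was the member with the lowest fold change. It was the most abundant of all members in the oil library, at 392.7 RPKM, and was at 248.2 RPKM in the CCl4 library, 0.632 of the oil level and a log2 fold change of -0.66. The 95% counting interval of the ratio ran from -0.71 to -0.62. Of all mRNA genes, 89.6% had a log2 fold change at or above that of H4c8. Its share of the summed H4 level was 22.9% in oil and 8.23% in CCl4. It lies at chr13:23531044-23531478, at the edge of a stretch of the Hist1 cluster, and H2ac10, the next member along the chromosome, had a log2 fold change of 1.53.

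**Figure D2:**
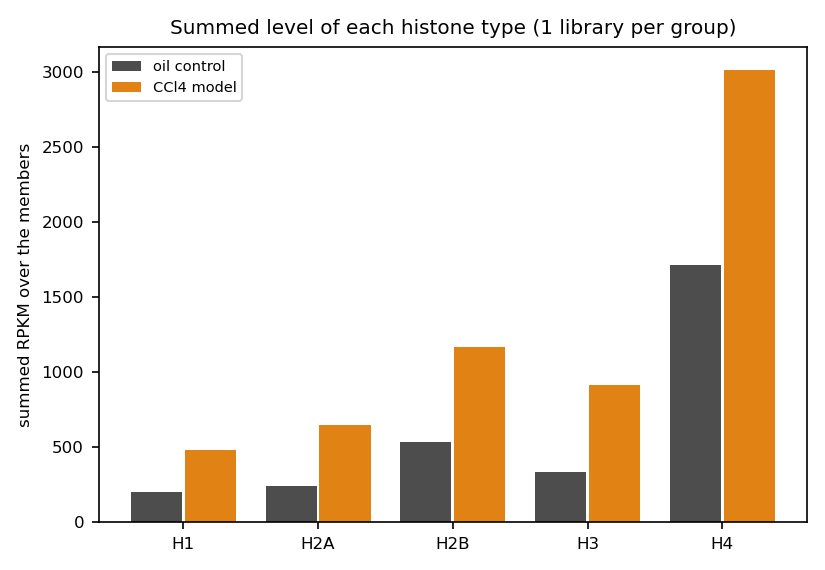
Summed RPKM of the members of each histone type in the oil control and CCl4 model libraries, with bars from 0. H4 had the highest sum in both libraries, 1716 and 3015 RPKM, and the lowest ratio, 1.76, while the sums of H2A and H3 differed 2.70-fold and 2.73-fold.

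The few members over 100 RPKM in the oil library had a lower median fold change than the rest. These 6 members, which were 5 H4 genes and H2bc4, had a median log2 fold change of 0.77. They ranged from -0.66 for H4c8 to 1.47 for H4c6, and level and histone type cannot be told apart in this split. The other 51 had a median of 1.42, and 45 of them were higher by at least 2-fold. The oil level enters both quantities. Across genes of the same 2 libraries, Spearman's rho between the oil level and the log2 fold change was -0.17 over the 57 members and -0.42 over all 10689 mRNA genes.

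The medians of the stretches of the Hist1 cluster lay close together. In the Hist1 cluster on chromosome 13, 40 of 47 genes listed in both libraries were higher, with a median log2 fold change of 1.42. Divided at gaps over 100 kb, its stretch at chr13:21715711-21837530 had a median of 1.46 and 14 of 14 listed genes higher. The stretch at chr13:22035122-22043658 had a median of 1.52 with 4 of 5 higher, the exception being H4c9 at 0.96. The stretch at chr13:23531044-23764412 had a median of 1.403 with 22 of 28 higher, and held both the lowest and the highest member, H4c8 and H3c1. The 2 testis genes at chr13:23933725-23934913, H2ac1 and H2bc1, were listed at 0 in both libraries.

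**Figure D3:**
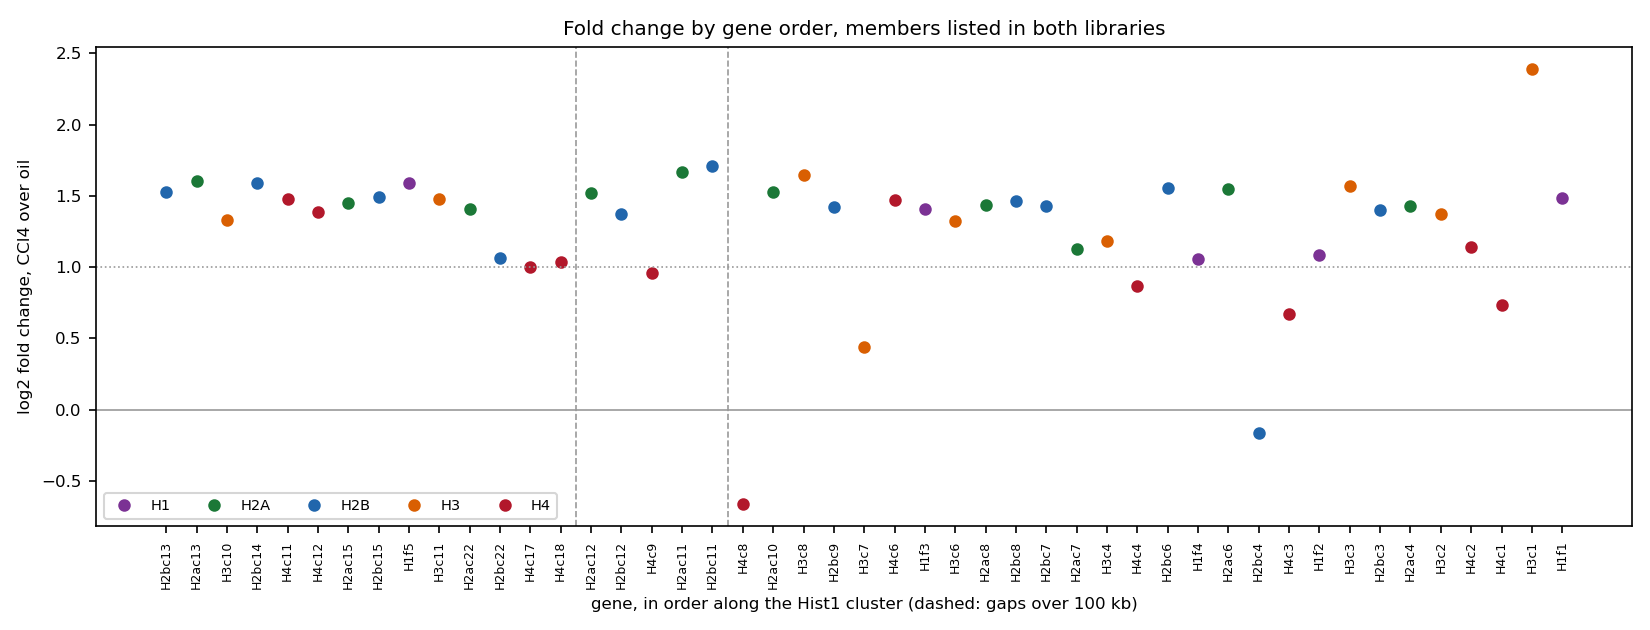
Log2 fold change of CCl4 over oil for the Hist1 genes listed in both libraries, in order along chromosome 13, with colours for the histone type and dashed lines at gaps over 100 kb. Most points lie between 1 and 1.7, with H4c8 at -0.66, H2bc4 at -0.16, H3c7 at 0.44 and H3c1 at 2.39 apart from their neighbours.

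The H2A and H2B genes of most pairs that start back to back had similar fold changes. Of 10 pairs known from the strands in the promoter table to start so, with 163 to 280 bases between their spans, 7 were listed in both libraries, and the log2 fold changes of the partners differed by 0.029 to 0.34, with a median of 0.076. The partners H2ac11 and H2bc11 were at 1.67 and 1.71, and H2ac15 and H2bc15 at 1.45 and 1.49. The H2A and H2B genes were close to each other in general, with quartiles of 1.25 and 1.52 for H2A and of 1.38 and 1.52 for H2B. Whether partners were closer than genes that are not paired was not tested. Within these 7 pairs the widest difference was between H2ac22, at 1.41, and H2bc22, at 1.07 with levels of 2.15 RPKM and 4.61 RPKM. Not among the 10 pairs, because the strand of 1 partner was not in that table, were H2ac6 and H2bc4, whose difference of 1.71 was wider than in any of the 7, and H2ac20 and H2bc21, of which H2bc21 was listed at 0 in oil.

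Outside Hist1, 7 of the 10 Hist2 genes on chromosome 3 were listed in both libraries and 5 were higher. Besides H2ac20 and H2bc18, these were H2ac21, at 3.86 RPKM in oil and 10.2 RPKM in CCl4, H3c13, at 25.6 RPKM and 79.3 RPKM, and H4c14, at 42.7 RPKM and 115.1 RPKM, with log2 fold changes of 1.38, 1.62 and 1.43. H2bc21 was listed at 0 in oil and at 2.30 RPKM in CCl4, so no fold change was computed for it. The 2 Hist3 genes on chromosome 11 were H2aw, at 12.4 RPKM in oil and 27.9 RPKM in CCl4, and H2bu2, at 3.28 RPKM and 4.64 RPKM, with log2 fold changes of 1.17 and 0.49. H4f16, the Hist4 gene on chromosome 6, was at 5.37 RPKM and 12.0 RPKM, a log2 fold change of 1.14.

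Listed at 0 in both libraries were 9 members. Of these, H1f6, H2ac1 and H2bc1 are known as testis genes. H2ac23, H2ac24, H2bc23 and H4bc24 belong to 7 members whose transcript the table placed at more than 1 locus. Despite its symbol, H4bc24 was counted as an H2B gene, by its older symbol Hist1h2br. Of the 7 members placed at more than 1 locus, 4 were listed at 0 at both loci and H2ac18 and H2ac19 were under 2 RPKM. H4c18 was listed at 0 at 1 locus, and at 86.1 RPKM in oil and 176.9 RPKM in CCl4 at the other. The RefSeq windows of H2bc23 and H4bc24 were identical. The last of the 9 were H3c14 and H3c15, the neighbours of H2ac18 and H2ac19. A value at or near 0 for these copies is therefore uncertain, since reads that match several places may have been dropped or divided.

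Most replication-independent histone variants listed in both libraries did not differ by 2-fold, though the share that did was above that of all mRNA genes. Of 14 in the table, 9 were listed in both libraries and 3 of these were higher, against 14.3% of all mRNA genes. The median log2 fold change of the 9 was 0.54, or 0.24 relative to the median gene. H1f10 and Macroh2a2 were listed in the CCl4 library only. The H3.3 genes, which supply histone outside S phase, were at 109.4 RPKM in oil and 101.1 RPKM in CCl4 for H3f3b, and at 89.4 RPKM and 129.9 RPKM for H3f3a, with log2 fold changes of -0.11 and 0.54. H1f0, a linker histone of differentiated cells, was at 53.3 RPKM and 76.2 RPKM, a log2 fold change of 0.51. The 3 that were higher were H2az1, which encodes H2A.Z, at 60.6 RPKM and 141.4 RPKM, H2ax, which marks DNA breaks when phosphorylated, at 15.9 RPKM and 34.3 RPKM, and Cenpa, the H3 of centromeres, at 2.40 RPKM and 9.47 RPKM. Their log2 fold changes were 1.22, 1.11 and 1.94.

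Genes for the transcription, processing and decay of histone mRNA, taken as 1 list, lay near the median of all mRNA genes. Of 28 such factors in the table, 25 were listed in both libraries and 1 was higher, with a median log2 fold change of 0.23 that became -0.072 when scaled to the median gene. Slbp, which binds the stem-loop, was at 7.58 RPKM in oil and 12.5 RPKM in CCl4, a log2 fold change of 0.72. Npat, a coactivator of histone transcription, was at 1.15 RPKM and 1.99 RPKM, a log2 fold change of 0.74. Of the subunits of NF-Y, Nfya was at 3.04 RPKM and 6.50 RPKM, Nfyb at 6.81 RPKM and 3.68 RPKM and Nfyc at 5.63 RPKM and 6.77 RPKM, with log2 fold changes of 1.07, -0.87 and 0.26. Ybx1, a CCAAT-binding protein and the most abundant of the list, was at 53.0 RPKM and 73.3 RPKM, a log2 fold change of 0.47. Slbp and Npat were named for their roles after their values were seen, as were Nfyb and Nfyc.

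Histone chaperones, which carry histones to DNA, had a median log2 fold change of 0.44, and 3 of 21 listed in both libraries were higher. These were Chaf1a, a subunit of the assembly factor CAF-1, at 1.18 RPKM in oil and 3.02 RPKM in CCl4, Mcm2, at 2.91 RPKM and 6.26 RPKM, and Cabin1, at 2.44 RPKM and 5.07 RPKM, and Mcm2 is also on the list of S-phase genes below, as is Slbp. The most abundant, Npm1, was at 39.2 RPKM and 55.7 RPKM, a log2 fold change of 0.51. The list as a whole was nearer to all mRNA genes than to the members.

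Genes of DNA replication and of mitosis were higher in the same library. Of 33 S-phase genes, 25 were listed in both libraries and 13 were higher, with a median log2 fold change of 1.04 and a sum of 110.2 RPKM in oil and 229.9 RPKM in CCl4. Pcna, the sliding clamp of DNA polymerase, was at 28.3 RPKM and 53.7 RPKM, a log2 fold change of 0.92, and Tk1, a thymidine kinase, at 16.7 RPKM and 21.6 RPKM, a log2 fold change of 0.37. Cdt1, a licensing factor, and Ccna2, cyclin A2, had log2 fold changes of 1.97 and 1.91. All 10 mitosis genes listed in both libraries were higher, with a median of 2.11 and a sum of 16.4 RPKM and 96.4 RPKM. Cdc20, an activator of the anaphase-promoting complex, had the highest mean level of them, at 2.43 RPKM and 19.9 RPKM, and Mki67, the gene of the proliferation marker Ki-67, was at 2.65 RPKM and 9.62 RPKM. The part of these genes' difference in that of the histone genes was not tested.

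**Figure D4:**
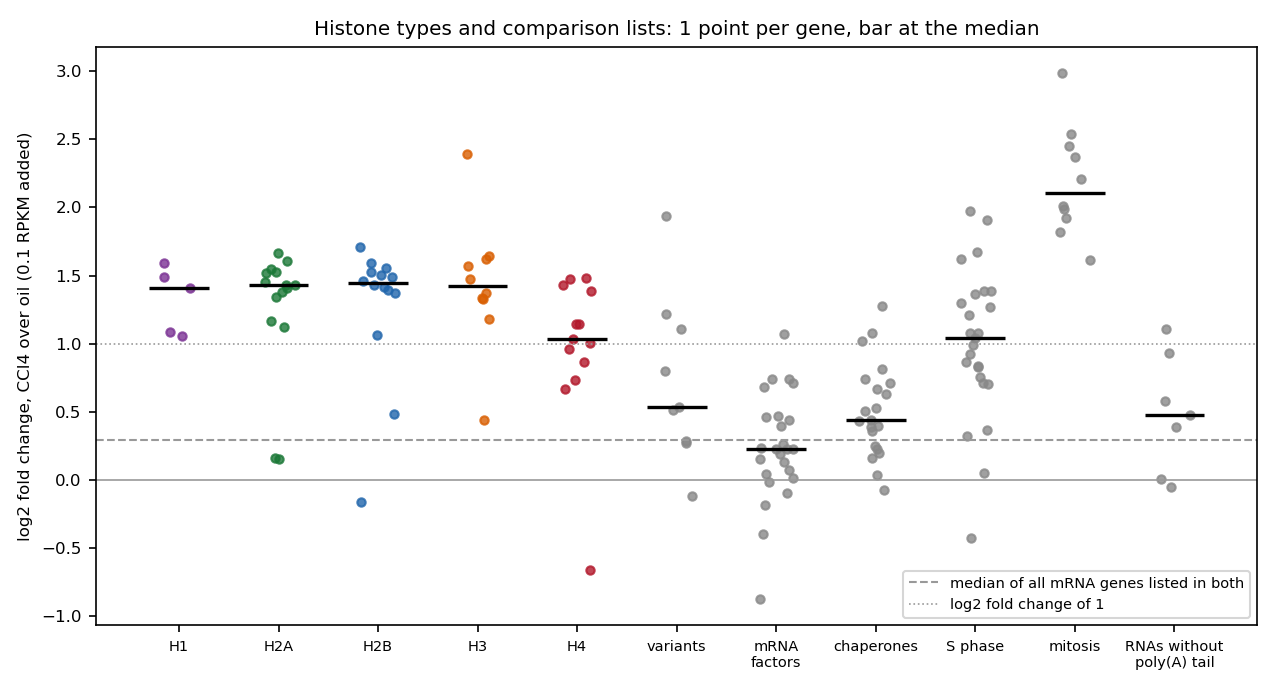
Log2 fold change of CCl4 over oil for each gene listed in both libraries, by histone type and for the comparison lists, with a bar at each median. The dashed line is the median of all mRNA genes, 0.30, and the dotted line a log2 fold change of 1. The medians of H1, H2A, H2B and H3 lie between 1.41 and 1.45, that of H4 at 1.04, and those of the variants, mRNA factors and chaperones between 0.23 and 0.54.

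Because most histone mRNAs have no poly(A) tail and are short, other such RNAs were set beside them. How RNA was selected for the libraries is not given in the sources used here beyond a standard Illumina preparation of total RNA. Of 23 RNAs known to lack a poly(A) tail, 9 were in the lncRNA table and 7 were listed in both libraries, with a median log2 fold change of 0.47 and 1 higher. Rmrp, the RNA of RNase MRP, was at 33486 RPKM in oil and 72286 RPKM in CCl4, a log2 fold change of 1.11, and Rpph1, the RNA of RNase P, at 39433 RPKM and 75383 RPKM, a log2 fold change of 0.93. Malat1 and Vaultrc5 were at -0.048 and 0.0060 on the log2 scale. Of 87 small nucleolar RNAs listed in both libraries, 7 were higher and 0 lower, with a median of 0.14, and of 36 other mRNA genes with a span under 1000 bases, 2 were higher, with a median of 0.018. The part of RNA selection in the histone difference was not tested.

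The markers of liver cell types differed between the libraries as well. The 6 hepatocyte markers were listed in both libraries and summed to 16254 RPKM in oil and 9781 RPKM in CCl4, with 4 of 6 lower and Alb, albumin, at 8656 RPKM and 6476 RPKM. The 7 Kupffer cell and macrophage markers summed to 1098 RPKM and 3127 RPKM, with 5 higher. Lyz2 alone was at 321 RPKM in oil and 1645 RPKM in CCl4, while Clec4f and Vsig4 had log2 fold changes of -0.15 and 0.57. The 9 stellate cell and myofibroblast markers summed to 74.2 RPKM and 879 RPKM, with 8 of the 8 listed in both libraries higher and Pdgfrb listed at 0 in oil. The 6 markers of sinusoidal endothelium summed to 446 RPKM and 739 RPKM, with 1 higher. Sums for the 5 cholangiocyte markers were 50.9 RPKM and 170.2 RPKM, with Sox9 listed at 0 in both libraries, and 2 of 4 were higher. Most of both sums was Spp1, at 37.4 RPKM in oil and 145.1 RPKM in CCl4. The 8 lymphocyte markers summed to 16.3 RPKM and 26.1 RPKM, and of the 5 listed in both libraries the B cell genes Cd79a and Cd79b were higher, with log2 fold changes of 1.93 and 1.59. The T and natural killer cell genes Cd3g and Nkg7 were at -0.62 and -0.66, while Cd2 was at 0.29. Klrb1c was listed at 0 in CCl4, Ms4a1 at 0 in oil and Cd3e at 0 in both. The 5 neutrophil markers summed to 301.4 RPKM and 211.6 RPKM, most of it S100a8 and S100a9, at -0.81 and -0.83 on the log2 scale, while Retnlg was higher, at 1.51, Csf3r was at 0.72, and Mpo was listed at 0 in CCl4. The 7 erythroid markers summed to 3207 RPKM and 2152 RPKM, with 0 higher and 2 lower of the 5 listed in both libraries. In bulk RNA, fewer cells of a type and less RNA per cell cannot be told apart, and which cells the histone mRNA came from, and the part of these markers' differences in that of the histone genes, were not tested.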

How the data were processed

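Total RNA of isolated hepatocytes was sequenced in 1 oil control and 1 CCl4 model library. The deposited RPKM values per transcript were made by the authors, and the submitters' processing notes name CASAVA 1.4, TopHat2 and mm10. The counting tool, its treatment of reads that match several places, the annotation release and the strand setting are not given in the sources used here, and neither is pooling of mice. The deposited counts, lengths and RPKM of 1443 new lncRNAs showed that every value under 1 RPKM is listed at 0 in the main tables. The log2 fold changes, p-values and q-values that these tables also hold were not used.

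RefSeq identifiers of 27049 of 27457 mRNA transcripts were matched to genes and sequences of GRCm38.p6. Log2 fold changes were computed for genes listed in both libraries with 0.1 RPKM added, with Python 3.11.15, numpy 2.4.6, pandas 2.3.3 and scipy 1.17.1, and figures drawn with matplotlib 3.10.9. With 1 library per group no test across genes was run, and alternatives (pseudocount, scaling, filters, fold limits, sums over transcripts) were computed instead. Library totals of 57992593 reads (oil) and 64655547 reads (CCl4) were recovered from the RPKM steps of short genes, with whole reads within 0.05 for 97.7% of 174 and 96.8% of 189 genes, and this step was tested on simulated data. From these totals and the RefSeq lengths, reads were computed for members with 1 RefSeq transcript, with exact Clopper-Pearson intervals at 95%. Whole reads resulted for 7 of 54 members, so the other read numbers are approximate.

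Members and comparison lists were chosen with earlier results of these data known. Named are the 4 most abundant members of each type, the 5 highest and 5 lowest log2 fold changes, all listed members outside Hist1, and, in each comparison list, the 4 most abundant genes and those past the 2-fold limit, of which the text gives a selection. Members named outside this rule, for their position, promoter or copies, were chosen after their values were seen. The groups of small nucleolar RNAs, guide RNAs and short genes were added after the data were seen.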

Additional observations from a re-analysis of the deposited data

How the results depend on the processing

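The range of settings left the direction of the members' difference as it was. No value changed sign among those that passed the 2-fold limit, and the number of members higher was 37 to 49 and lower 0 at that limit under the pseudocounts, scalings and filters tried. No paired analysis was possible because each group had 1 library, and for the same reason no library could be left out. Relative to the median gene, the median log2 fold change was 1.11 over all members, and 1.11, 1.13, 1.14, 1.12 and 0.74 for H1, H2A, H2B, H3 and H4. Scaled without the 10 most abundant genes it was 1.61 over all members, and 1.61, 1.63, 1.65, 1.63 and 1.24 by type. Summed levels relative to the median gene had log2 ratios of 0.95, 1.13, 0.83, 1.15 and 0.51 for H1, H2A, H2B, H3 and H4. Without the most abundant gene of the type, and with the main scaling, those of H1 and H2B were 1.37 and 1.49 in place of 1.25 and 1.13. At 1.5-fold, 51 of 57 members were higher and 1 was lower, while 31.5% of all mRNA genes were higher and 12.0% lower. At a log2 fold change of 2, 1 member was higher, with 1.76% of all genes higher and 0.702% lower. Relative to the median gene 7.99% of all genes were higher and 9.71% lower, and with at least 5 RPKM in both libraries 9.52% were higher.

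The medians of the comparison lists moved with the scaling. Relative to the median gene they were 0.24 for the histone variants, -0.072 for the histone mRNA factors, 0.14 for the chaperones, 0.75 for the S-phase genes, 1.81 for the mitosis genes and 0.17 for the RNAs without a poly(A) tail. For the markers they were -1.74 in hepatocytes, 0.94 in macrophages, 3.21 in stellate cells, 0.44 in endothelium, 0.0031 in lymphocytes, -0.35 in neutrophils, -0.84 in erythroid cells and 0.53 in cholangiocytes. Scaled without the 10 most abundant genes, the same lists were at 0.74, 0.43, 0.64, 1.24, 2.31 and 0.68, and the markers at -1.23, 1.45, 3.71, 0.95, 0.49, 0.15, -0.34 and 1.02. With 1 RPKM added, the S-phase genes were at 0.90, the mitosis genes at 1.66 and the stellate cell markers at 3.13. With at least 5 RPKM in both libraries, 4 S-phase genes were at 0.77, 3 stellate cell markers at 3.88, 3 neutrophil markers at -0.81 and 2 cholangiocyte markers at 1.48. With values listed at 0 set to the smallest value, the S-phase genes were at 0.91, the neutrophil markers at -0.81 and the erythroid markers at -0.71. The cause of these shifts was not tested beyond the settings themselves. Genes under 1 RPKM are listed at 0, so a lower level could not be seen.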

Other observations

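Some genes of the comparison lists were listed in the CCl4 library only. Among the histone chaperones these were Asf1b, a carrier of new H3 and H4, at 3.24 RPKM, and Chaf1b, a subunit of CAF-1, at 2.13 RPKM. Lsm11, a component of the U7 particle that cuts histone mRNA, was at 1.25 RPKM, and the linker histone H1f10, whose gene lies outside the clusters, at 1.51 RPKM. All 4 were listed at 0 in the oil library, which means a level under 1 RPKM, so no fold change was computed. Also listed in the CCl4 library only were the S-phase genes Ccne1, Ccne2, E2f2, Cdc45, Gins2, Pole and Rfc4. The same held for the mitosis genes Ccnb1, at 7.08 RPKM, Plk1, Cenpe and Cenpf, and for Macroh2a2 and Pou2f1. No S-phase or mitosis gene of the lists was listed in the oil library only. All these genes were named after their values were seen.

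Members with a gene span under 600 bases, of which 47 were listed in both libraries, had a median log2 fold change of 1.42 with 39 higher. The 10 listed members with a longer span had a median of 1.21 with 8 higher. No test was made of this difference. Of 9 RNAs that RefSeq classes as guide RNAs, 1 was higher, with a median of 0.53.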
